A study of Mus musculus with 25 samples.

Results

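The genes described here are the 46 members of a list of cell cycle and mitosis genes, followed in mouse lung after bleomycin, a DNA-damaging drug that injures the lung and is used to model pulmonary fibrosis. Members were chosen by symbol: 11 act in DNA replication, 24 in mitosis and cell division, 5 at entry into the cycle and 6 in several of its phases. Foxm1, an activator of mitotic genes, is counted among the 5 entry members. A probe set is the group of short probes on the array that reports a gene. The probe set with the highest mean intensity among those annotated to that symbol alone stood for a gene. Of the 46 members, 45 had such a probe set, the exception being Ccnb1 (cyclin B1). Of these 45, 44 were above the median of the array on at least 4 arrays and were tested, among 12062 tested genes of 18193 in all. The member left out at that step was Tyms, thymidylate synthase, whose intensities ran from 24.1 to 94.4 over the 25 arrays.

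The study compared wild-type (WT) mice with FP-KO mice, which lack FP, the receptor for prostaglandin F2α that the gene Ptgfr encodes. All mice were female and were given bleomycin into the trachea on Day 0, at a dose of 1 mg/kg and a volume of 40 ul, and lung RNA was taken on Day 0, Day 7 or Day 14. There were 4 WT mice on Day 0, 4 on Day 7 and 5 on Day 14, and 4 FP-KO mice on each day, each on 1 Affymetrix mouse 430 2.0 array. The strain, the ages, the cells in which the receptor was lost and whether the Day 0 mice were taken after the instillation are not given in the sources used here, and no group without bleomycin in its protocol was analysed. The values show total RNA of whole lung, in which fewer cells of a type and less RNA per cell cannot be told apart.

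As background, a dividing cell first makes cyclin D and cyclin E, which with their kinases release E2F factors from the retinoblastoma proteins. E2F turns on the genes for DNA synthesis, such as the MCM helicase and ribonucleotide reductase. Mitotic genes come later: the DREAM complex holds them silent in resting cells through a promoter element called the cell cycle homology region (CHR), and B-MYB and FOXM1 activate them in dividing ones, often beside CCAAT boxes bound by NF-Y. Most cells of an adult lung rest outside the cycle, and after injury epithelial, endothelial and mesenchymal cells and macrophages can divide.

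Probe sets for lung genes were bright on all 25 arrays, for example Sftpc, surfactant protein C, at 26192.1 to 42588.7. The lowest Ptgfr intensity in WT mice was 122.6 and the highest in FP-KO mice 57.6. Over 11833 genes outside the gene lists used here, the second principal component, with 17.6% of the variance, split the Day 14 arrays into 2 sets. The first set held WT No. 1, No. 2 and No. 3 and FP-KO No. 1 and No. 2, at -30.11 to -26.96. The second held WT No. 4 and No. 5 and FP-KO No. 3 and No. 4, at -1 to 2.47. Both sets hold both genotypes, and no source used here says what separates them. On the first component, with 39.5% of the variance, FP-KO Day 14 No. 2 lay at -26.6, among the Day 0 arrays at -33.22 to -23.8, while the other FP-KO Day 14 mice lay at -4.65 to 1.94. Whether this mouse received bleomycin as labelled cannot be told from the files used here. Results on Day 14 are therefore given with and without that mouse and by set.

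Promoter sequences from RefSeq on GRCm38.p6, from 250 bases before to 50 bases after the annotated start, were matched for 38 of the 46 members, in 41 promoters. Each was searched on both strands for E2F words (TTTCCCGC, TTTGGCGC, TTTGCCGC or TTTCGCGC), CHR words (TTTGAA or TTCGAA) and the NF-Y box (CCAAT). A CHR word was in 18 of 23 mitotic promoters (78.3%) and in 2 of 11 replication promoters (18.2%), against 19.2% of all 32851 promoters. E2F words had the opposite spread, with 4 of 11 replication promoters (36.4%), 1 of 23 mitotic promoters (4.3%) and 2.3% of all promoters. The CCAAT box was in 9 of 11 replication promoters (81.8%) and 18 of 23 mitotic promoters (78.3%), against 37.4% of all. Other genes of the same processes, not members, had CHR words in 75.0% of 40 mitotic and 20.9% of 43 replication promoters. No E2F word overlapped a CHR word in any promoter, an E2F word overlapped a CCAAT box in 1 member promoter, and a CHR word did so in 1. These matches describe letters and do not show that a factor bound.

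The replication and mitotic members whose levels changed most from Day 0, among those with a promoter to print, illustrate both kinds, and Mcm6 was added after its E2F words were seen. The promoters lie at chr11:117825965-117826264 for Tk1, chr12:24708004-24708303 for Rrm2, chr7:102441445-102441744 for Rrm1, chr1:128359656-128359955 for Mcm6, chr10:69352863-69353162 for Cdk1, chr3:27153829-27154128 for Ect2 and chr1:189688037-189688336 for Cenpf. Those of Rrm2 and Rrm1 are on the plus strand and the other 5 on the minus strand. Each is written 5′ to 3′ along its gene, and capitals mark the E2F, CHR and CCAAT words on either strand.
Tk1: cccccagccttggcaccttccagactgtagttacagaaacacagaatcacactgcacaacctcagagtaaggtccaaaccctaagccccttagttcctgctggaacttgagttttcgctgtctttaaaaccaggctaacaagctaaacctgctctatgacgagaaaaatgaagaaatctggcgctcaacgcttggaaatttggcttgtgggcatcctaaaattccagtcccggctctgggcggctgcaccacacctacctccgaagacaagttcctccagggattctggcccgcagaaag
Rrm2: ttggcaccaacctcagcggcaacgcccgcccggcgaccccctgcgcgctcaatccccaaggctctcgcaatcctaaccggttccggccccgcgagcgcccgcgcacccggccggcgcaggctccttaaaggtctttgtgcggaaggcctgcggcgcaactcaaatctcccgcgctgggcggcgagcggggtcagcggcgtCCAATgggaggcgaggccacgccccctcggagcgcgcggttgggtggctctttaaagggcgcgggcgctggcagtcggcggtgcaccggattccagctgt
Rrm1: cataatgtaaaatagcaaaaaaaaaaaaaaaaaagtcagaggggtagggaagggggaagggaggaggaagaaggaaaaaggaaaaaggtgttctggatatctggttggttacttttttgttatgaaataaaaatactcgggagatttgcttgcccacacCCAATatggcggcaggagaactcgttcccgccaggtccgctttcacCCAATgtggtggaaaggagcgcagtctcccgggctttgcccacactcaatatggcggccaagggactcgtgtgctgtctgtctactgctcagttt
Mcm6: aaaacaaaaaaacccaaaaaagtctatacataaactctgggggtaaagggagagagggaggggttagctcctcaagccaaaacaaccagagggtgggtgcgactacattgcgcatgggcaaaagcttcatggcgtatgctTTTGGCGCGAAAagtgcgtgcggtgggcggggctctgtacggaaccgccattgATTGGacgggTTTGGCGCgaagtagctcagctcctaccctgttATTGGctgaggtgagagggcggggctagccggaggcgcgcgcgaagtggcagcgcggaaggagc
Cdk1: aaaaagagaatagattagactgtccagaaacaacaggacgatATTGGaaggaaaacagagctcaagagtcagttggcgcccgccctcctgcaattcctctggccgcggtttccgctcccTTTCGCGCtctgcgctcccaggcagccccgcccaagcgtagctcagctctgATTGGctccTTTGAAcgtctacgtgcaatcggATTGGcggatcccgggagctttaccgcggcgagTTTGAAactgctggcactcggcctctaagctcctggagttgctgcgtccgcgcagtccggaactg
Ect2: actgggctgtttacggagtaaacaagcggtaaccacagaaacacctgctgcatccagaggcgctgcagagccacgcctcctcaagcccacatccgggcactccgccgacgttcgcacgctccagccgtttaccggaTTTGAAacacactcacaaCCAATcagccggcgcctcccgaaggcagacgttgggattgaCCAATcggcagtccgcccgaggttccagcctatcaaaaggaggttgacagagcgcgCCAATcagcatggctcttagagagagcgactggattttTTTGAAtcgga
Cenpf: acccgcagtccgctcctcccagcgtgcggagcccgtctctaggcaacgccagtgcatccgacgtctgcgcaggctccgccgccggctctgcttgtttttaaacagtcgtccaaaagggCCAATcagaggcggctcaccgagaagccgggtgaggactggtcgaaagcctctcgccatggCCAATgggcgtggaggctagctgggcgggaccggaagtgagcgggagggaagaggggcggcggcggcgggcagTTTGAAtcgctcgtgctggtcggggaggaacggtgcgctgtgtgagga
Cdk1 held 2 CHR words, 3 CCAAT boxes and 1 E2F word, Ect2 2 CHR words and 3 CCAAT boxes, and Cenpf 1 CHR word and 2 CCAAT boxes. Mcm6 held 3 E2F words and 2 CCAAT boxes. Its E2F words at -110 and -106 from the start overlap on opposite strands within 1 marked stretch. Rrm2 and Rrm1 held 1 and 2 CCAAT boxes and none of the other words, and Tk1 held none of the 3 kinds.

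**Figure D1:**
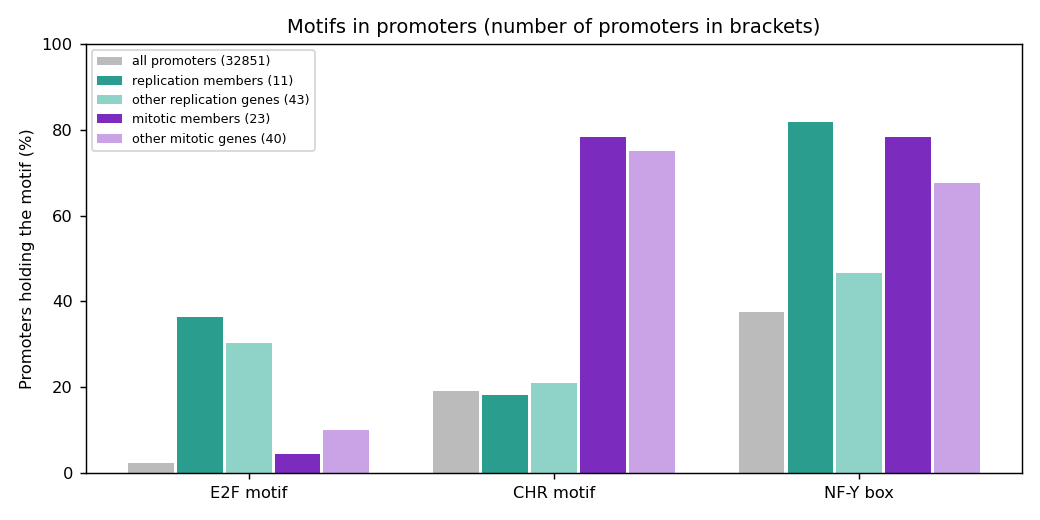
Share of promoters, in percent on an axis from 0 to 100, that hold at least 1 E2F word, CHR word or CCAAT (NF-Y) box, for all promoters, the replication and mitotic members and the other genes of both processes. CHR words stand in 78.3% of mitotic member promoters and 18.2% of replication member promoters, and E2F words in 4.3% and 36.4%.

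In WT lung the members rose together by Day 7. Of the 44 tested, 42 rose and none fell, with a median log2 change of 1.91, where all genes tested had a median of -0.01 and 17.1% of them rose. A log2 change of 1 means a level 2 times as high. All 23 mitotic members rose, with a median of 2.24, as did 9 of 10 replication members, with a median of 1.12, all 6 of several phases and 4 of 5 entry members. Here and below, limma made the calls, with p-values adjusted by Benjamini-Hochberg across the 12062 genes and a threshold of 0.05. Each p-value sets a difference against the spread between mice within groups, estimated per gene over all 25 arrays. For a single mouse the titles give only its group and number, so what else any mice share is not known.

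The 5 largest increases were in Cdk1, Nuf2, Mki67, Melk and Tk1, and every Day 7 mouse was above every Day 0 mouse in 42 of the 44 members, which held for 17.2% of all genes. Cdk1, the kinase that drives entry into mitosis, had intensities of 129, 180.1, 154 and 187 in the WT mice on Day 0, in the order of their numbers, and of 1092, 1521, 1139 and 1302 on Day 7. It rose by 2.97 ± 0.31 (log2 change ± standard error, n = 4 and 4, limma adjusted p = 4.18e-07), and no Day 7 mouse was near any Day 0 mouse. Nuf2 of the NDC80 kinetochore complex, which ties chromosomes to the spindle, rose by 2.86 ± 0.26. Mki67, which encodes the Ki-67 protein of cycling cells, had intensities of 243, 173, 276 and 276 on Day 0 and 1344, 1476, 1127 and 1638 on Day 7. Its change was 2.55 ± 0.24 (limma adjusted p = 1.33e-07), with every Day 7 mouse above every Day 0 mouse. Melk, a kinase of dividing cells, went from 55.6, 41.9, 69.9 and 54.9 to 309, 352, 276 and 313 and rose by 2.52 ± 0.39, and Tk1, the thymidine kinase of S phase, by 2.51 ± 0.3.

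The other mitotic members rose by 1.22 to 2.5. Cenpf, a kinetochore protein of late cycle, had intensities of 67.1, 47.4, 85.3 and 75.2 on Day 0 and 308, 409, 349 and 451 on Day 7. Ect2, the exchange factor that starts cytokinesis, had 124, 107, 89.6 and 106 on Day 0 and 598, 516, 504 and 760.5 on Day 7, again with no overlap. The spindle checkpoint kinases Ttk and Bub1 rose by 2.49 ± 0.24 and 1.91 ± 0.24, and their partners Bub1b and Mad2l1 by 1.66 ± 0.24 and 1.92 ± 0.23. Aurkb, Birc5 and Cdca8 form the chromosomal passenger complex and rose by 2.43 ± 0.32, 2.25 ± 0.24 and 2.42 ± 0.29. The motor proteins Kif20a, Kif11, Kif23 and Kif4 rose by 2.3, 1.78, 1.52 and 1.22, and the midzone protein Prc1 and the spindle proteins Tpx2 and Nusap1 by 2.24, 2.3 and 1.84. Ccnb2 (cyclin B2), Cdc20, the activator that ends mitosis, and the kinases Plk1 and Aurka rose by 2.29, 2.07, 2.06 and 1.89. Ndc80, the partner of Nuf2, rose by 1.96 ± 0.21, and the lowest mitotic increase was that of Kif4. Of the members of several phases not yet named, Ccna2, the topoisomerase Top2a, the kinase Chek1 and the CDK subunit Cks2 rose by 2.31, 2.26, 1.79 and 1.55.

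Among the replication members, 2 stood with the mitotic ones. Tk1 had intensities of 66.1, 89.7, 103 and 107 on Day 0 and 469, 535, 457 and 576 on Day 7. Rrm2, the small subunit of ribonucleotide reductase, which makes deoxynucleotides, had 333, 435, 292 and 399 on Day 0 and 1801, 1848, 1623 and 2044 on Day 7 and rose by 2.34 ± 0.28 (limma adjusted p = 1.83e-06). In both genes the lowest Day 7 mouse had over 3 times the intensity of the highest Day 0 mouse. The large subunit Rrm1 moved less, from 455, 641, 653 and 751 to 1516, 1386, 1507 and 1652, a rise of 1.3 ± 0.15. The MCM subunits, which form the replicative helicase, rose by 1.49 ± 0.22 for Mcm5, 1.35 ± 0.16 for Mcm3, 0.94 ± 0.12 for Mcm7, 0.92 ± 0.18 for Mcm6 and 0.57 ± 0.12 for Mcm4. Pcna, the sliding clamp of the polymerases, rose by 0.58 ± 0.11. Mcm2, at 0.33 ± 0.17 (limma adjusted p = 0.134), was the replication member that did not pass. A second, dimmer probe set of Mcm2 gave other values, with changes from Day 0 of 1.38 in WT and 1.21 in FP-KO mice on Day 7 and of 1.1 and 0.38 on Day 14, and a Day 14 difference between the genotypes of -0.68, without a test.

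Entry members covered the range between these. Ccne2 (cyclin E2) had intensities of 132, 101, 94.4 and 79.3 on Day 0 and 283, 298, 345 and 485 on Day 7, a rise of 1.81 ± 0.25. E2f1, an activating E2F factor, had 86.0, 73.1, 93.7 and 105 on Day 0 and 188, 181, 198 and 236 on Day 7, a rise of 1.19 ± 0.15. Each of these genes had its Day 7 mice wholly above its Day 0 mice, and Ccne1 (cyclin E1) rose by 1.14 ± 0.21. Ccnd1 (cyclin D1), made earliest in the cycle, had 4569, 4545, 4378 and 3956 on Day 0 and 6811, 6279, 6166 and 7091 on Day 7, and rose by only 0.56 ± 0.13 (limma adjusted p = 0.00203). Foxm1, the activator of mitotic genes, had 58.2, 177, 128 and 149.7 on Day 0 and 172, 199, 205 and 229.8 on Day 7, and its change of 0.77 ± 0.43 did not pass (limma adjusted p = 0.169). The Foxm1 mice of both days overlapped, with 1 Day 0 mouse above the lowest Day 7 mouse. A dimmer probe set of Foxm1, at or under 24.3 on 9 arrays, gave other values, without a test. Its changes from Day 0 were 2.03 in WT and 1.72 in FP-KO mice on Day 7, and 2.28 and 0.95 on Day 14. Its Day 14 difference between the genotypes was -1.32. Another dim probe set gave 0.71, 0.87, 1.14, 0.34 and -0.77 in the same order.

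By Day 14 most members were still above Day 0 in WT lung. Of 44 members, 40 passed, with a median of 1.55, where 19.1% of all genes were higher, and 40 had every mouse above Day 0, where 14.8% of all genes did. All 23 mitotic members (median 1.85), 8 of 10 replication members (median 0.80), 3 of 5 entry members and all 6 of several phases passed. Cdk1 stood at 820.4, 1039, 1013, 1022 and 941 in the WT mice of Day 14, Mki67 at 1305, 1296, 1386, 1307 and 1088 and Ccna2, cyclin A2 of S phase and early mitosis, at 752, 948, 970.0, 734 and 603. The values of Ccna2 were 157, 224, 213 and 170.1 on Day 0 and 913, 996, 861 and 938 on Day 7, so its lowest Day 14 mouse was above every Day 0 mouse, as for Cdk1 and Mki67. The largest changes from Day 0 were in Cdk1 (2.55 ± 0.3), Mki67 (2.4 ± 0.23), Nuf2 (2.39 ± 0.25), Cenpf (2.36 ± 0.24) and Ect2 (2.22 ± 0.3). The members that did not pass were Mcm2 (0.13), Pcna (0.23), Ccnd1 (0.26) and Foxm1 (0.9), and the smallest increase that passed was that of Mcm4 (0.3).

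Between Day 7 and Day 14 no member changed at the threshold in WT lung, where 5.94% of all genes did. The median difference was -0.31, 41 of 44 members had a negative difference, and 8 had an unadjusted limma p under 0.05, where 26.2% of all genes did. The 5 most negative differences were in Mcm5 (-0.67 ± 0.2, limma adjusted p = 0.0541), Mad2l1 (-0.63), Ccne2 (-0.61), Cdca8 (-0.54) and Kif20a (-0.54), and E2f1 had the highest at 0.22. This count of 0 depended on the fit: 5 members fell with only the WT groups of both days in the fit, 8 with array weights, 4 in the first Day 14 set, and 1 to 3 without WT Day 14 No. 4 or No. 5, FP-KO Day 7 No. 4 or FP-KO Day 14 No. 2, No. 3 or No. 4, the FP-KO mice entering through the shared spread. Of all genes, 12.1% fell in the first Day 14 set and 3.42% without FP-KO Day 14 No. 2. For the other of these settings the share of all genes was not computed. The mean over members dropped by 0.34 for replication and by 0.32 for mitosis between the days, and the difference between the roles was not tested.

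FP-KO lung showed the rise on Day 7 as well. There 42 of 44 members rose, with a median of 1.63, where 12.6% of all genes rose, and 41 had every mouse above Day 0, where 13.8% of all genes did. All 23 mitotic members (median 1.80), 9 of 10 replication members (median 0.90), 4 of 5 entry members and all 6 of several phases passed. Cdk1 had intensities of 289.8, 259.8, 163 and 198 on Day 0 and 1548, 1783, 978 and 749 on Day 7, a rise of 2.48 ± 0.31 (n = 4 and 4, limma adjusted p = 1.26e-05). Ect2 went from 197, 182, 108 and 101 to 920.5, 932, 442 and 472, a rise of 2.3 ± 0.31. In both genes No. 1 and No. 2 were the high mice on Day 7, and all 4 were above Day 0. Mki67, at 539.8, 450.3, 193 and 348 on Day 0 and 1467, 1038, 1147 and 856 on Day 7, rose by 1.68 ± 0.24. Ccna2 went from 207, 306, 80.5 and 294 to 984, 1111, 737 and 589, Cenpf from 136, 107, 61.9 and 125 to 421, 376, 299 and 244, and Melk, by 1.86 ± 0.39, to 360.0, 329, 212 and 147. On Day 0 FP-KO No. 3 was the lowest of its group in each of these 3 genes.

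Rrm2 and Tk1 again had the largest changes of the replication members on Day 7. Rrm2 had intensities of 658, 509, 292 and 296 on Day 0 and 2198, 2325, 1531 and 996 on Day 7, and Tk1 of 139, 134, 84.4 and 123 on Day 0 and 592, 703, 425 and 236 on Day 7. These rises were 2.04 ± 0.28 and 2.03 ± 0.3, with No. 4 the lowest Day 7 mouse in both. Rrm1 went from 530.1, 659.9, 624 and 691 to 1635, 1642, 1270.2 and 1059 and Ccne2 from 153, 96.2, 104 and 89.7 to 422, 364, 314 and 229, rises of 1.15 ± 0.15 and 1.7 ± 0.25. E2f1, at 103, 137, 120.2 and 97.0 on Day 0 and 163, 186, 157 and 145 on Day 7, rose by 0.62 ± 0.15, with its lowest Day 7 mouse just above its highest Day 0 mouse. Ccnd1 was at 5179, 4012, 4726 and 4929 on Day 0 and 6714, 7237, 6048 and 5564 on Day 7, without overlap, and Foxm1 at 154, 73.4, 35.0 and 206 on Day 0 and 169, 217, 212 and 179.5 on Day 7, with overlap. Over all members, Kif20a (2.33), Cdk1, Ect2, Ccna2 (2.14) and Rrm2 had the largest changes. The smallest were in Mcm2 (0.28, not passed), Ccnd1 (0.36), Pcna (0.54), Mcm4 (0.58) and Kif4 (0.58), and Foxm1 again did not pass (1.13 ± 0.43, limma adjusted p = 0.0595).

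By Day 14 most of this rise was gone from FP-KO lung. Against Day 0, 1 member of 44 was higher, Ndc80 of the kinetochore (1.21 ± 0.21, limma adjusted p = 0.00446), where 1.85% of all genes were higher. Ndc80 was above the array median on only 9 of 25 arrays. Its intensities in these FP-KO mice, 30.3 to 50.4 on Day 0 and 77.3 to 111 on Day 14, were below the lowest array median of 112.3. It thus entered the test through other groups. The median was 0.31, and 15 members had an unadjusted limma p under 0.05, where 19.2% of all genes did. In 2 members every mouse was above Day 0, which held for 4.9% of all genes. After Ndc80 the highest changes were in Kif20a (0.88), Foxm1 (0.85), Tpx2 (0.84) and Ccna2 (0.8), and the lowest in Ccnd1 (-0.17), Mcm5 (-0.09), Mad2l1 (-0.09), Pcna (-0.08) and Kif4 (-0.04), with none of these 9 passing. From Day 7 to Day 14, 41 members fell and none rose, with a median of -1.12, where 12% of all genes fell. All 23 mitotic members (median -1.34), 9 of 10 replication members (median -0.77), 3 of 5 entry members and all 6 of several phases fell, and the exceptions were Mcm2 (-0.26), Foxm1 (-0.28) and E2f1 (-0.11). The 5 largest falls were in Cdk1 (-1.75 ± 0.31), Tk1 (-1.72 ± 0.3), Ect2 (-1.69 ± 0.31), Rrm2 (-1.61 ± 0.28) and Ccnb2 (-1.6 ± 0.26), and the smallest that passed was that of Ccnd1 (-0.54).

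The FP-KO mice of Day 14 were not alike. Cdk1 had intensities of 564, 155, 490.0 and 415 in No. 1 to No. 4, and Rrm2 of 727, 321, 607 and 684. Melk had 165, 28.8, 95.6 and 124, against 104, 77.5, 50.5 and 71.0 on Day 0. In each of these genes No. 2 was the lowest and lay within or below the Day 0 mice, and the other 3 were above the median of Day 0. Of the 44 members, 37 were above every FP-KO Day 0 mouse in No. 1, 3 in No. 2, 19 in No. 3 and 31 in No. 4, while in each WT mouse of Day 7 and Day 14 it was 42 to 44. Without No. 2, 9 members rose from Day 0, with a median of 0.63 over the 44, where 3.18% of all genes rose. From Day 7, 34 fell, where 4.85% of all genes did. The count that rose was also 5 without FP-KO Day 0 No. 1, 4 without FP-KO Day 7 No. 2, and 2 without FP-KO Day 7 No. 4, WT Day 0 No. 1, WT Day 14 No. 4 or WT Day 14 No. 5. The count that fell from Day 7 was 22 in the second Day 14 set, where 1.59% of all genes fell. It was 19 with only those groups in the fit. For that fit, and for leaving out a mouse other than FP-KO Day 14 No. 2, the share of all genes was not computed.

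**Figure D2:**
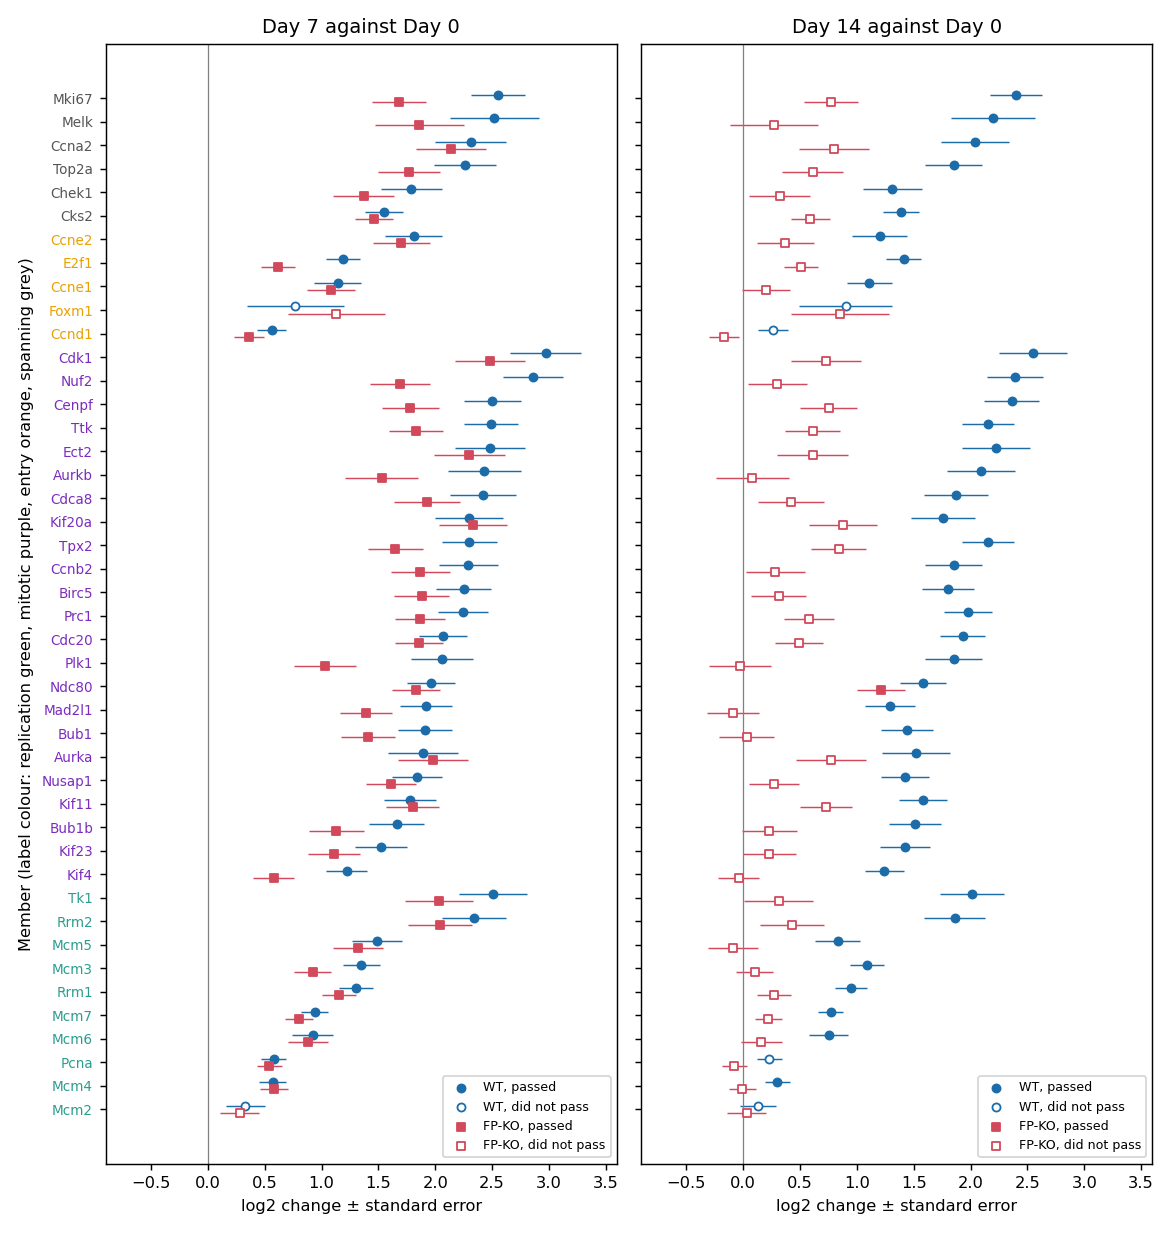
Log2 change from Day 0 with its standard error for each of the 44 tested members on Day 7 (left) and Day 14 (right), in WT (blue circles) and FP-KO (red squares), with filled marks for members that passed. On Day 7 both genotypes lie to the right of 0, and on Day 14 WT members keep a median of 1.55 while FP-KO members have a median of 0.31.

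On Day 0 and Day 7 no member differed between the genotypes at the threshold, where 0.0166% of all genes did on each day. On Day 0 the differences, FP-KO minus WT, ran from -0.39 to 0.85, with 38 of 44 above 0 and 6 at an unadjusted limma p under 0.05, where 3.34% of all genes were. The 5 members with the smallest p were Nuf2 (0.85 ± 0.26), Kif4 (0.56 ± 0.18), Aurkb (0.77 ± 0.32), Plk1 (0.63 ± 0.27) and Mki67 (0.56 ± 0.24), each with an adjusted p of 1. On Day 7 they ran from -0.4 to 0.16, with 35 of 44 below 0 and none at an unadjusted limma p under 0.05, where 7.27% of all genes were. The smallest p values belonged to Ndc80 (-0.39 ± 0.21, limma adjusted p = 0.703), E2f1 (-0.28), Tpx2, a spindle assembly factor (-0.4), Plk1 (-0.4) and Mki67 (-0.31). The 95% intervals of single members reached from -1.28 to 1.43 on Day 0 and from -1.12 to 0.86 on Day 7.

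On Day 14 the members were lower in FP-KO than in WT lung. Of 44, 38 were lower and none higher, with a median of -0.95, where 5.64% of all genes were lower. All 23 mitotic members (median -1.05), 7 of 10 replication members (median -0.61), 3 of 5 entry members and 5 of 6 of several phases passed. In 36 members every FP-KO mouse was below every WT mouse, which held for 5.71% of all genes. The members with the smallest p were Cdc20 (-1.22 ± 0.2, n = 5 and 4, limma adjusted p = 0.00127), Birc5 (-1.2 ± 0.23), Nuf2 (-1.24 ± 0.25), Plk1 (-1.25 ± 0.25), Prc1 (-1.03 ± 0.21), Tk1 (-1.37 ± 0.28), Cdk1 (-1.41 ± 0.3) and Rrm2 (-1.26 ± 0.27).

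The values of single mice show the separation. Cdk1 was at 564, 155, 490.0 and 415 in FP-KO and 820.4, 1039, 1013, 1022 and 941 in WT mice, and Mki67 at 775, 444, 656 and 632 in FP-KO and 1305, 1296, 1386, 1307 and 1088 in WT. Tk1 was at 203, 75.9, 164 and 172 in FP-KO and 329.7, 424, 413, 401 and 289.8 in WT mice. In these 3 genes, and in Rrm2, at 1179, 1381, 1378, 1399 and 1291 in WT mice, the highest FP-KO mouse was below the lowest WT mouse. Ccna2, at 497, 226, 362 and 337 in FP-KO mice, had a difference of -1.22 ± 0.3 (limma adjusted p = 0.0121), Ect2, at 338, 106, 251 and 218 against 485, 626, 561, 462 and 432, one of -1.28 ± 0.3, and Cenpf, at 289, 123, 135 and 178 against 320.5, 387, 367, 353 and 327, one of -1.05 ± 0.24. Melk, at 297, 271, 260.1, 261 and 194 in WT mice, had the largest difference of the members at -1.6 ± 0.37 (limma adjusted p = 0.00822).

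Members that act at entry or in replication held most of the small differences. E2f1 was at 145, 118, 178 and 203 in FP-KO and 229, 218, 235, 273 and 223 in WT mice, a difference of -0.61 ± 0.15 (limma adjusted p = 0.0105), and Ccne2, at 143, 88.9, 152 and 179 against 190.3, 238, 230.5, 242 and 255, one of -0.8 ± 0.24. Rrm1, at 925, 581, 836 and 767 against 1071, 1297, 1252, 1300.1 and 1169.5, had a difference of -0.66 ± 0.14. None of these 3 genes overlapped between the genotypes. Ccnd1, at 3597, 3281, 4745 and 5239.9 against 4670.0, 4621, 4247, 6869 and 5419.6, and Foxm1, at 308, 218, 158 and 78.0 against 214, 265, 220.4, 235 and 179, overlapped. The members that did not pass were these with differences of -0.31 and -0.43, and Mcm2 (-0.08), Pcna (-0.27), Mcm4 (-0.32) and Chek1, a kinase of the DNA damage checkpoint (-0.61).

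How many members passed on Day 14 rested on FP-KO Day 14 No. 2. Without it 17 were lower, where 1.66% of all genes were, the median was -0.81, and all 44 differences were still negative. In the first set (3 WT and 2 FP-KO mice), 28 were lower, where 5.16% of all genes were. The medians there were -0.77 for replication and -1.16 for mitosis, and 42 of 44 differences were negative, those of Mcm2 and Foxm1 being 0.1 each. In the second set (2 and 2 mice, without No. 2) none passed, and the medians were -0.41 and -0.93. There all 44 differences were negative and 29 had an unadjusted limma p under 0.05, where 10.3% of all genes did and 0.00829% were lower at the threshold. With the set as a term in the fit, 40 were lower, and the share of all genes in that fit was not computed.

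**Figure D3:**
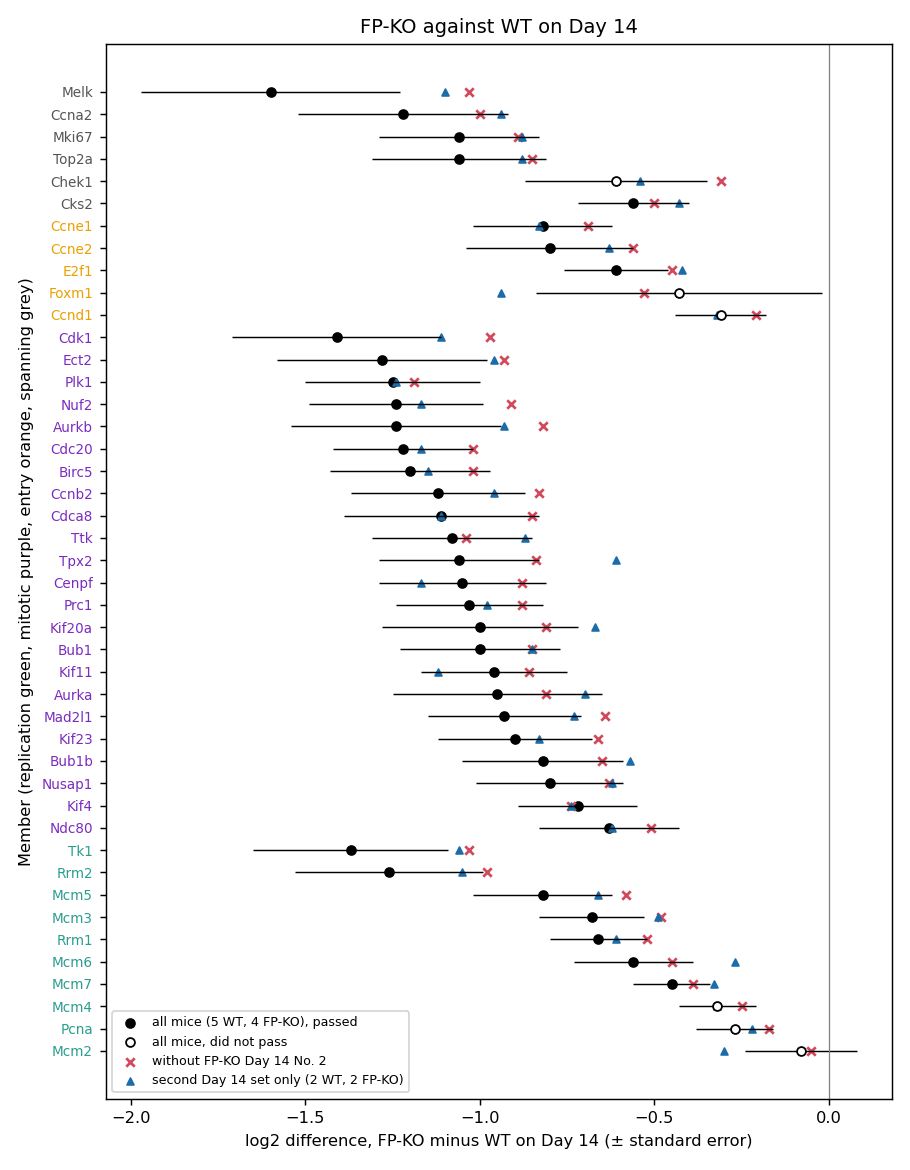
Log2 difference on Day 14, FP-KO minus WT, for the 44 tested members with the standard error over all mice (black, filled where passed), without FP-KO Day 14 No. 2 (red crosses) and in the second set of Day 14 arrays alone (blue triangles). All 44 black marks lie below 0, as do all 44 in both alternatives.

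The change from Day 0 to Day 14 differed between the genotypes in 25 members, all lower in FP-KO, with a median of -1.24, where 1.84% of all genes had a lower interaction. Of the 25, 19 were mitotic, 3 replication, 1 entry and 2 of several phases. The smallest p values belonged to Nuf2 (-2.09 ± 0.36, limma adjusted p = 0.00982), Plk1 (-1.88 ± 0.37), Kif4 (-1.28 ± 0.25), Mki67 (-1.62 ± 0.33), Cdc20 (-1.44 ± 0.29), Cenpf (-1.6 ± 0.35), Mcm3 (-0.99 ± 0.22) and Prc1 (-1.4 ± 0.31). This contrast holds the Day 0 difference too. Nuf2 was at 122, 130.4, 117 and 140.4 in FP-KO and 75.6, 61.2, 66.2 and 68.2 in WT mice on Day 0, and at 258, 81.9, 154 and 179 in FP-KO and 328, 410.3, 348, 381 and 347 in WT mice on Day 14. Its FP-KO mice were thus all above WT on Day 0 and all below on Day 14. Without FP-KO Day 14 No. 2 the interaction passed in 13 members, where 0.597% of all genes had a lower interaction. It passed without WT Day 0 No. 1 in 11, without FP-KO Day 0 No. 1 in 13 and without FP-KO Day 0 No. 2 in 10. Without WT Day 14 No. 2 or No. 3 it passed in 16 each, and with no filter on low genes in 15. In the second set it passed in no member and in 0% of all genes, with all 44 negative there. For the other settings the share of all genes was not computed.

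For Day 7 against Day 0 no interaction passed in any member, where 0% of all genes did. The median was -0.37 and 5 members had an unadjusted limma p under 0.05, where 6.34% of all genes did, namely Nuf2 (-1.17 ± 0.37, limma adjusted p = 0.772), Plk1 (-1.03), E2f1 (-0.58), Mki67 (-0.87) and Kif4 (-0.64). For Day 14 against Day 7 none passed either, where 0.00829% of all genes did, although all 44 were negative, with a median of -0.84, and 33 had an unadjusted limma p under 0.05, where 7.72% of all genes did. Those with the smallest p were Cdc20 (-1.23 ± 0.29, limma adjusted p = 0.393), Prc1 (-1.04), Ect2 (-1.44), Birc5 (-1.12) and Ccnb2 (-1.16). The interactions share their Day 0, Day 7 and Day 14 mice with the comparisons above.

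**Figure D4:**
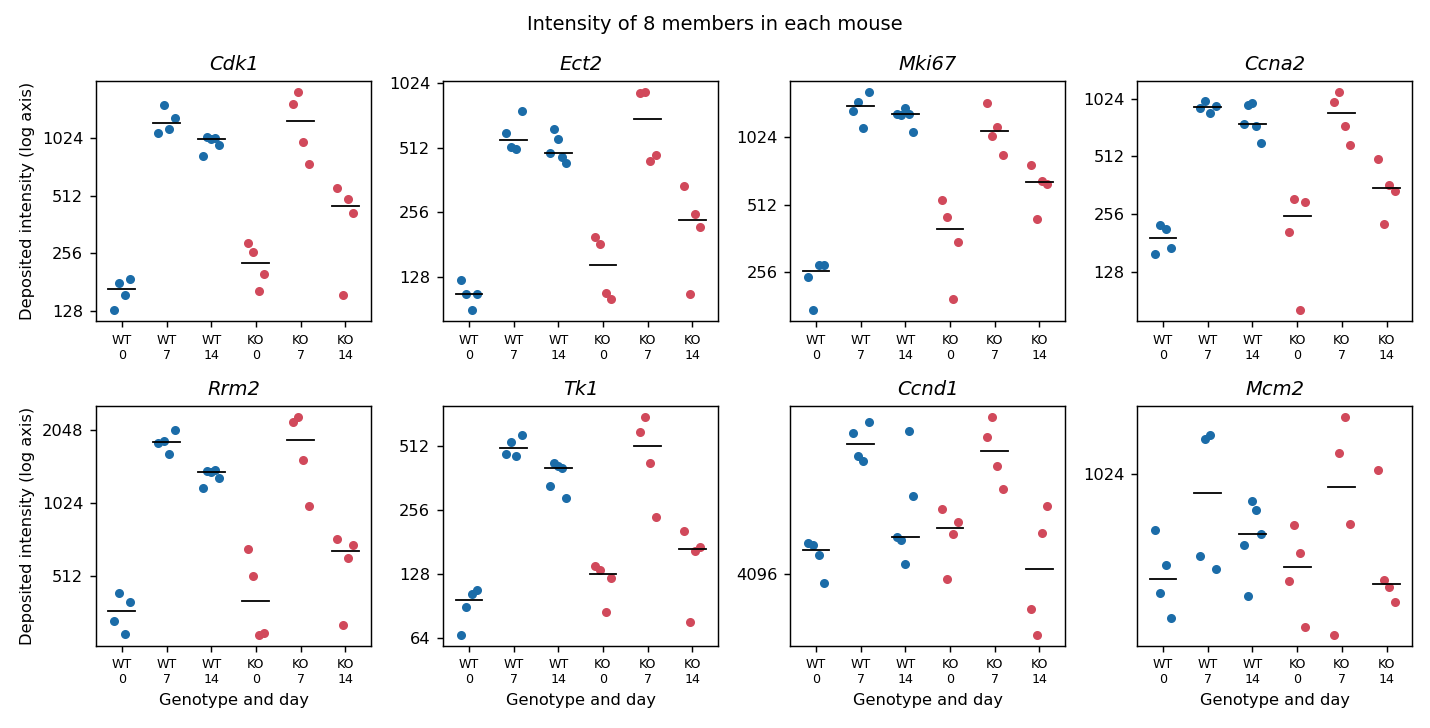
Deposited intensity of 8 members in each mouse, on log axes, by genotype (KO stands for FP-KO) and day, with a line at the median of each group. Cdk1, Ect2, Mki67, Ccna2, Rrm2 and Tk1 have FP-KO mice below WT mice on Day 14, while Ccnd1 and Mcm2 overlap between genotypes on each day.

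In every mouse after Day 0 the mean change of the replication members was below that of the mitotic ones. The mean change from Day 0 over the 10 replication members in WT mice was 1.23 ± 0.15 on Day 7 (SD over 4 mice) and 0.89 ± 0.12 by Day 14 (SD over 5 mice). Over the 23 mitotic members it was 2.15 ± 0.14 and 1.82 ± 0.12. The replication mean was below the mitotic mean in all 9 of these mice, by 0.78 to 1.07. In FP-KO mice the replication mean was 1.05 ± 0.28 on Day 7 and 0.13 ± 0.32 by Day 14 (SD over 4 mice each), and the mitotic mean 1.69 ± 0.48 and 0.44 ± 0.45. Replication was below mitosis in all 8 of these mice too, by 0.40 to 0.85 on Day 7 and by 0.17 to 0.59 on Day 14.

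Between Day 7 and Day 14 the FP-KO replication mean dropped by 0.92 and the mitotic mean by 1.25. On Day 7 FP-KO No. 4 had the lowest means (0.66 and 1.12), and on Day 14 No. 2 did (-0.34 and -0.17), the others being at 0.24 to 0.33 and 0.49 to 0.90. FP-KO mice already differed on Day 0 in the mitotic mean, from -0.36 in No. 3 to 0.42 in No. 1 (SD 0.35), where WT mice ran from -0.09 to 0.14. The replication members had brighter probe sets on Day 0, with a median intensity of 742 and a range from 106 (Tk1) to 6440 (Pcna), against 119 and a range from 44.1 (Ndc80) to 561 (Cdc20) for the mitotic ones. Brightness depends on the probes and is no measure of one transcript against another, and its part in the size of the log2 changes was not tested. No value of a tested member was at or under 24.3, the floor set before the log.

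**Figure D5:**
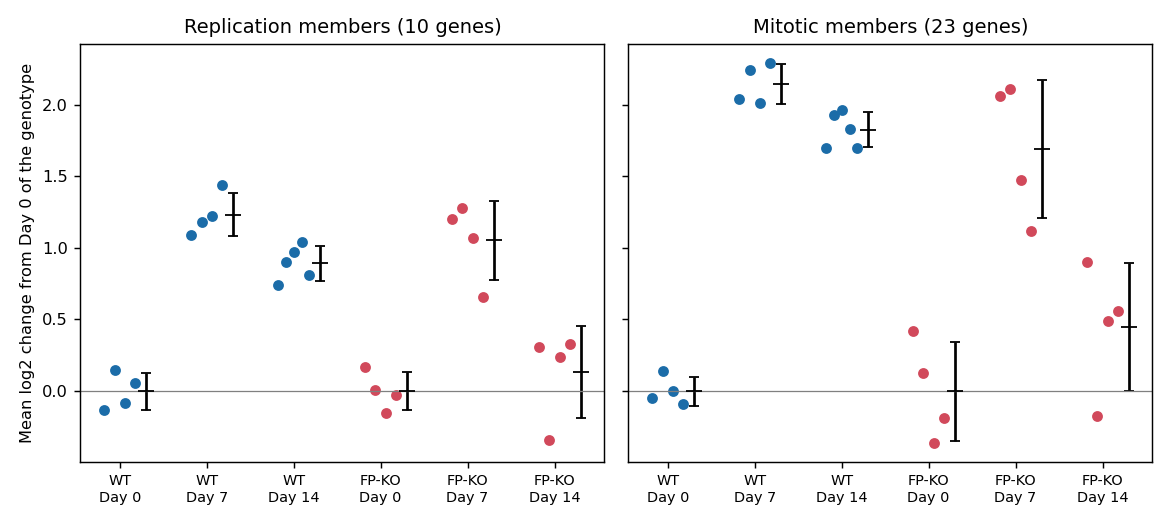
Mean log2 change from the Day 0 mean of its genotype over the 10 replication members (left) and the 23 mitotic members (right) in each of the 25 mice, with the mean and SD of each group in black. WT mice stay at 0.74 to 1.04 and 1.70 to 1.96 on Day 14, where FP-KO mice are at -0.34 to 0.33 and -0.17 to 0.90.

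Other genes of the same processes were taken from lists that hold no member. Of 44 tested other mitotic genes, 38 rose and 1 fell in WT lung on Day 7 (median 1.74), where 17.1% of all genes rose. On Day 14, 27 were lower and 1 higher in FP-KO (median -0.85) and 16 did not pass, where 5.64% of all genes were lower. Cdca3, a mitotic entry factor, Ube2c, the ubiquitin enzyme of the anaphase-promoting complex, and the kinetochore protein Spc25 rose by 2.02 ± 0.19, 2.3 ± 0.24 and 2.59 ± 0.27 and were lower in FP-KO on Day 14 by -1, -1.22 and -1.26. Pttg1 (securin) was the gene that went the other way, at -0.59 and 0.36. Of 40 tested other replication genes, 26 rose in WT lung on Day 7 (median 0.58), and 18 were above Day 0 on Day 14 (median 0.21), where 19.1% of all genes were. In FP-KO on Day 14, 14 were lower (median -0.33) and 26 did not pass. Uhrf1, which maintains DNA methylation behind the fork, rose by 2.2 ± 0.28, and Dbf4, the partner of the CDC7 kinase, by 1.23 ± 0.14. They were lower in FP-KO on Day 14 by -1.3 ± 0.26 and -0.62 ± 0.13.

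Of 15 regulators of entry beyond the members, WT lung on Day 7 had 8 that rose and 1 that fell (median 0.38). On Day 14, 7 of them were lower in FP-KO (median -0.36), where 5.64% of all genes were. Cks1b, a subunit of CDK complexes, rose by 1.58 ± 0.17 and Myc by 1.35 ± 0.17. Of 15 inhibitors of the cycle, 3 rose and 2 fell in WT lung on Day 7 (median 0), where 17.1% of all genes rose and 18% fell. Between the genotypes on Day 14 none passed, with differences from -0.9 to 0.4. The 2 largest increases were in p53 targets, Cdkn1a, which encodes the CDK inhibitor p21 (2.08 ± 0.31 on Day 7 and 2.14 ± 0.3 on Day 14), and Ccng1 (1.59 ± 0.18 and 1.21 ± 0.18). In FP-KO lung these were still above Day 0 on Day 14 (1.47 ± 0.31, limma adjusted p = 0.0128, and 0.88 ± 0.18). Of the members, 1 was, or 9 without FP-KO Day 14 No. 2. The members Kif20a (0.88) and Tpx2 (0.84) changed by about as much as Ccng1 and did not pass. Ccng1 had intensities of 5229.7, 2516.2, 5525.2 and 5539.5 in FP-KO mice on Day 14 and 2864.5, 2293.2, 2423.8 and 2281.5 on Day 0. Cdkn1a had intensities of 3873, 1349.7, 2645 and 2539.9 in FP-KO mice on Day 14, with No. 2 the lowest, and 946, 1309.5, 784 and 624 on Day 0. In WT mice on Day 14 its intensities were 4993, 5797, 5077, 4095 and 3063.5.

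Some markers of macrophages and fibroblasts moved on the same days. Of 16 tested macrophage markers, 12 rose in WT lung on Day 7, where 17.1% of all genes did. On Day 14, 9 of them were lower and 1 higher in FP-KO (median -0.58), where 5.64% of all genes were lower and 4.89% higher. Their summed intensity was 54698.1 to 71406.9 in WT mice on Day 0, 77883 to 96420.3 on Day 7 and 70585.6 to 81627.8 on Day 14. In FP-KO mice it was 64521 to 69783.1, 74049.4 to 85253.8 and 65329 to 82864.5, and no macrophage marker was at the floor on any array. Of this sum, Lyz2 made up 23631.3 to 36927.5 and Chil3 9125.2 to 20043 over the 25 arrays. Of 11 fibroblast markers, 5 rose in WT lung on Day 7 and 6 did not pass, and the same shares of all genes apply. On Day 14, 4 of them were lower in FP-KO, namely Col1a2, Col1a1, Lum and Col3a1 (median of the list -0.22, range -1.21 to 0.44). The other 7, Pdgfra, Pdgfrb, Postn, Dcn, Fap, Thy1 and Acta2, did not pass. Their summed intensity was 47836.7 to 52110.3, 73945.9 to 89171.6 and 71198.6 to 89132.4 in WT mice and 49501.8 to 61369.7, 66557.7 to 77415.9 and 60105.5 to 75885.6 in FP-KO mice, by day. Col3a1 made up 7123.1 to 28468.9 and Col1a2 4961 to 18059.6 of this sum over the 25 arrays.

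None of the tested T cell (9), B cell (7) and alveolar type 2 (8) markers passed between the genotypes on Day 14. Of 10 endothelial markers 1 was higher in FP-KO, where 4.89% of all genes were higher and 5.64% lower. Between days more of them passed. In WT lung on Day 7, 4 B cell, 5 endothelial and 4 alveolar type 2 markers were below Day 0, where 18% of all genes were. In FP-KO lung 6 T cell markers fell from Day 7 to Day 14, where 12% of all genes fell. Over the same days 6 endothelial and 6 alveolar type 2 markers rose, where 10.7% of all genes rose. Thymocytes and erythroid precursors also divide. Of the thymocyte genes, Rag1 was at or under the floor on 24 of 25 arrays, Rag2 on 22, Ptcra on 13, Dntt on 8, Arpp21 on 4 and Cd1d1 and Themis on none. Of the erythroid genes, Klf1 was there on 15, Hba-a1 on 13, Rhd on 3 and Alas2, Epor, Ermap and Tfrc on none. The summed thymocyte list was 645.9 to 1652.2 in WT and 682.5 to 1741.9 in FP-KO mice, and the erythroid list 2733.2 to 7560.9 and 4150.2 to 7812.5. The part of any of these cell types in the member values was not tested.

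Most further probe sets of the members had the same sign. Of 57, 32 passed the same filter, and in 32, 31, 32 and 26 of these the sign was that of the member's own probe set for WT Day 7, WT Day 14, FP-KO Day 7 and FP-KO Day 14 against Day 0.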

How the data were processed

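Lung RNA of 25 mice (13 WT, 12 FP-KO) was measured in 6 groups of 4 or 5. Sample titles gave the group and mouse number, with 1 array per mouse. The members and gene lists were chosen with earlier results of these data known. The authors deposited linear intensities for 45101 probe sets, with every array at a trimmed mean of 500 after leaving out 2% at each end, by software that no source used here names. The number of arrays limits the precision.

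Values were floored at 24.3 (the 20th percentile), taken to log2 and quantile-normalized, since the array medians on the log2 scale of the deposited values ran from 6.81 to 7.24. Probe sets for controls (64), for several symbols (932) or for none (9160) were left out. The brightest probe set stood for each of 18193 genes, and the 12062 above the array median on at least 4 arrays were tested. Raw scanner files were not used here, so the background correction and scaling before deposit could not be varied.

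limma 3.58.1 in R 4.3.3 (lmFit on 6 group means, 12 contrasts, eBayes) shared 1 spread per gene over all arrays, and a gene passed below 0.05 after Benjamini-Hochberg adjustment. No p was computed for a list or a mean over members. The fit was tested on simulated data with 200 changed genes. Plots used matplotlib 3.10.9 under python 3.11.15. In each role the 3 members with the largest mean of the 4 changes from Day 0, with Cdk1, Mki67 and Ccnd1, are given in every mouse. Named for each genotype contrast and interaction are at most 8 members that passed, or the 5 with the smallest p, and for each time contrast the 5 largest and smallest changes. Other lists name up to 4 genes that passed, and Pttg1, Ndc80, Nuf2 on Day 0 and the remaining values were added after they were seen.

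Deviations from the group means were correlated between WT and FP-KO mice with the same number. The correlations ran from 0.119 to 0.345 on Day 0 and from 0.141 to 0.221 on Day 7. On Day 14 the range was -0.308 to 0.437. The value of -0.308 was that of No. 3, whose WT mouse lies in the first Day 14 set and whose FP-KO mouse lies in the second. Deviations cancel within a group, so positive values for the same number go with lower ones, on average, for different numbers. On Day 0 and Day 7, mice with the same number were thus somewhat alike. No source used here says what they share, and its cause was not tested. The main fit held no term for the number. No arrays held identical values, and the highest correlation between 2 arrays was 0.989. Alternatives covered normalization, floor, filter, choice of probe set, spread, array weights, replicate block, Day 14 set and leaving out each mouse. The replicate block within days and leaving out 2 FP-KO mice together were chosen after the data were seen.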

Additional observations from a re-analysis of the deposited data

Results flagged for a closer look

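In 102 groups of values looked at (13 members and 4 role means in 6 groups), 7 had 1 mouse far from the rest, a gap that chance gives in about 1 in 20 groups. FP-KO Day 14 No. 2 was lowest in Rrm2 (normalized log2 intensity 8.23, the next mouse at 9.25) and in the replication mean (-0.34, the next at 0.24). The other 5 were in WT mice: Mki67 lowest in Day 0 No. 2 (7.61 against 7.99), E2f1 highest in Day 7 No. 4 (7.86 against 7.62) and in Day 14 No. 4 (8.11 against 7.87), Cdk1 lowest in Day 14 No. 1 (9.62 against 9.89) and Melk lowest in Day 14 No. 5 (7.62 against 8).

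The change from Day 0 to Day 14 differed between the genotypes by the interaction term of limma in 25 members. Those with the smallest p were Nuf2 (-2.09), Plk1 (-1.88), Kif4 (-1.28), Mki67 (-1.62), Cdc20 (-1.44), Cenpf (-1.6), Mcm3 (-0.99) and Prc1 (-1.4), on the log2 scale and FP-KO minus WT. In all 8 the Day 14 difference alone was smaller in size, at -1.24, -1.25, -0.72, -1.06, -1.22, -1.05, -0.68 and -1.03 in the same order, and the FP-KO mean was higher on Day 0, by 0.85, 0.63, 0.56, 0.56, 0.22, 0.55, 0.31 and 0.36.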

How the results depend on the processing

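Of 2012 alternative values for the counts and medians, 1964 stayed within the limits set for a change (1.5 times for a count, 1 SD for a median) and 48 did not, and of 6035 alternative values of member changes 144 no longer passed, 43 newly passed and 65 turned sign, none of the 65 passing in the report or under the alternative. In WT lung the Day 7 medians were 0.96 for replication with no filter on low genes, 0.87 and 2.06 for replication and mitosis with the mean of all probe sets, and 2.07 to 2.27 for mitosis with 1 mouse left out. With the mean of all probe sets the WT Day 14 replication median was 0.63 and the replication minus mitotic mean -0.82. Members that fell from WT Day 7 to Day 14, 0 in the report, numbered 1 with a filter of 12 arrays, 2 with trend and robust eBayes, 8 with array weights, 5 with only the groups compared, 2 with the replicate block, 4 in the first Day 14 set, 3 without FP-KO Day 14 No. 2 and FP-KO Day 7 No. 4, and 0 to 3 with 1 mouse left out. Members above Day 0 in FP-KO on Day 14, 1 in the report, numbered 0 with a filter of 12 arrays, 2 with the mean of all probe sets, 3 with trend and robust eBayes, 9 with array weights, 0 with only the groups compared, 2 in the second set, 14 without both FP-KO mice and 1 to 9 with 1 mouse left out, and 1 was below Day 0 in the first set. Members that fell from FP-KO Day 7 to Day 14 numbered 19 with only the groups compared and 22 in the second set. Members lower in FP-KO on Day 14 numbered 0 in the second set, 25 without both FP-KO mice and 17 to 39 with 1 mouse left out, and lower interactions at Day 14 numbered 15 with no filter, 0 in the second set and 10 to 29 with 1 mouse left out. Sign changes in the first Day 14 set were Melk in FP-KO from Day 0 to Day 14 (-0.08) and Foxm1 in FP-KO from Day 7 to Day 14 (0.31), between the genotypes on Day 14 (0.1) and in the interactions of Day 14 with Day 0 (0.49, and 0.02 with the set as a term) and Day 7 (0.13). In the second set they were Ccnd1 in FP-KO from Day 0 to Day 14 (0.06) and E2f1 in FP-KO from Day 7 to Day 14 (0.18, and 0.1 with array weights). Between the genotypes on Day 0, Rrm1 had -0.04 with a common median, -0.06 with the mean of all probe sets and -0.05 with array weights, and Ccna2 0 with a common median. On Day 7 without both FP-KO mice, Tk1 had 0.17, Rrm2 0.11, Cdk1 0.15, Ccne2 0.12, Foxm1 0.03 and Ccna2 0.01, and in the interaction of Day 7 with Day 0 Ccne2 had 0.08, as had Rrm1 0.03 with the mean of all probe sets. With 1 mouse left out, FP-KO changes crossed 0 for Melk from Day 0 to Day 14 (-0.06 to 0.83) and from Day 7 to Day 14 for E2f1 (-0.23 to 0.05) and Foxm1 (-0.57 to 0.1). Genotype differences did so on Day 0 for Rrm2 (-0.07 to 0.34), Rrm1 (-0.12 to 0.1), Ccne2 (-0.17 to 0.2), Foxm1 (-0.75 to 0.1) and Ccna2 (-0.2 to 0.46). On Day 7 they did for Tk1 (-0.39 to 0.17), Rrm2 (-0.27 to 0.11), Cdk1 (-0.25 to 0.15), Ect2 (-0.02 to 0.34), Ccne2 (-0.2 to 0.12), Foxm1 (-0.15 to 0.05) and Ccna2 (-0.3 to 0.01). Interactions crossed 0 at Day 7 for Ect2 (-0.36 to 0.01), Ccne2 (-0.27 to 0.09), Foxm1 (-0.13 to 0.72) and Ccna2 (-0.62 to 0.04), and at Day 14 against Day 0 for Foxm1 (-0.53 to 0.33). The cause of these shifts was not tested, and the second set holds 2 mice per genotype. Shares of all genes were computed only for the main fit, without FP-KO Day 14 No. 2 and in each Day 14 set. The replicate block changed no other count by more than 1.5 times, with 36 members lower on Day 14 (35 within days) and 27 lower interactions (23 within days). Signal over background was not given in the values used here, and 4 or 5 mice per group limit the precision.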
